A study of Saccharomyces cerevisiae with 14 samples.

Results

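Ribosome biogenesis genes encode the factors that make, fold, cut and export the ribosomal subunits, and they are described here across an induction of SWI4 in budding yeast (Saccharomyces cerevisiae). The genes were chosen by identifier from a list of 52 reading frames: nucleolar box C/D and H/ACA proteins, processome genes, DEAD-box helicases and 60S assembly factors. Of the 6670 reading frames in the count table, 51 belonged to the list, and 1 listed identifier was not analysed here. All 51 passed the filter on low counts, and the lowest count of any of them in any library was 146.

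The series asks how yeast transcripts respond when SWI4, the DNA-binding subunit of the G1/S transcription factor SBF, is overexpressed. Every group carried the genotype Z3EVpr-SWI4, in which SWI4 is driven by a promoter that responds to an estradiol-activated synthetic transcription factor, so no group lacked the construct. The groups had 2 libraries each: cultures that received 5 nM beta-estradiol dissolved in ethanol and were sampled at 1, 2 or 4 h, mock cultures that received ethanol only and were sampled at the same times, and untreated cells at 0 h. All grew in synthetic complete (SC) medium with 2% glucose. Nothing in the labels tells if the 2 replicates of a group came from separate cultures, so the p-values measure only the spread between libraries, which may be technical.

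In yeast, ribosomal RNA is transcribed in the nucleolus, modified by small nucleolar ribonucleoproteins (snoRNPs), cut within the small-subunit processome and packed into pre-60S and pre-40S particles by assembly factors, helicases and GTPases. The genes for these factors are transcribed by RNA polymerase II as a coordinated regulon that is high in fast-growing cells and is turned down in stress. Most carry a PAC element, bound by the repressors Dot6 and Tod6, and an RRPE element, bound by Stb3, in their promoters.

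Total counts ran from 3469868 to 17314913 per library. SWI4 had 1730 and 1010 CPM (counts scaled to library size with TMM factors) in replicates 1 and 2 after 1 h of estradiol, 1400 and 908 after 2 h, and 1050 and 668 after 4 h. It ranged from 12.1 to 23 CPM in the ethanol libraries and had 17.9 and 20.7 CPM in the untreated ones. Its log2 fold change against ethanol was 6.64 at 1 h (SE 0.48, edgeR adjusted p = 2.28e-05), 6.21 at 2 h (SE 0.47, adjusted p = 3.59e-05) and 5.61 at 4 h (SE 0.45, adjusted p = 5.52e-05), and SWI4 was called under every other setting tried. The cells' mating type is not given in the labels. Summed over 5 genes, a-cell markers had 637 to 1600 CPM in every library, and 4 alpha-cell markers summed to 18.8 to 26 CPM. The a-cell markers differed: STE2, STE6 and BAR1 had at least 98.4 CPM in every library, while MFA1 ran from 2.52 to 81.1 CPM and MFA2 from 16.9 to 147 CPM. The highest alpha-cell marker, SAG1, ran from 14.2 to 20.8 CPM.

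The promoters of 6 of the genes are shown because the sequence elements of the regulon sit in nearly every one of them. The sequences are RefSeq's for the R64 genome, 5′ to 3′ on the strand of the gene, from 30 bases before the first match to 10 bases after the last, and capitals mark the PAC core and the RRPE core. The sources used here do not give the genome build behind the counts, so R64 was used for sequence and names only. NOP56 (YLR197W) is a box C/D snoRNP core protein, CBF5 (YLR175W) the pseudouridine synthase of the H/ACA snoRNPs and NHP2 (YDL208W) another H/ACA core protein. UTP10 (YJL109C) is a processome subunit, HAS1 (YMR290C) a DEAD-box helicase, and NSR1 (YGR159C) the yeast nucleolin, whose PAC core lies on the opposite strand.
NOP56, chrXII:545895-546004, plus strand: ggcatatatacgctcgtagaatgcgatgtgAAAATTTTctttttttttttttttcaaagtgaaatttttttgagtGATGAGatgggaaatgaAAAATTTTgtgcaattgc
CBF5, chrXII:505903-506018, plus strand: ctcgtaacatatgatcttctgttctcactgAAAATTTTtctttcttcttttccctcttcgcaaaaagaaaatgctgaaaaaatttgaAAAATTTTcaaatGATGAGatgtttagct
NHP2, chrIV:87359-87425, plus strand: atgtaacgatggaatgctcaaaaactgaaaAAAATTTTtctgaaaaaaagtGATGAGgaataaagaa
UTP10, chrX:217394-217455, minus strand: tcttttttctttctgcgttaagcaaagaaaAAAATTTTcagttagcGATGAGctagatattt
HAS1, chrXIII:851677-851787, minus strand: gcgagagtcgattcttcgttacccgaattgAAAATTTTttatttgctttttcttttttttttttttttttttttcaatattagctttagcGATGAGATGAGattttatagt
NSR1, chrVII:807811-807873, minus strand: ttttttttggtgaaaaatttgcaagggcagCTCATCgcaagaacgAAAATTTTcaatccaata

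The PAC core, searched as GATGAG on both strands of the 250 bases before the start codon, was present in 50 of the 51 promoters (98.0%), against 17% of the 6001 promoters of that length in R64. The exception was UTP4, a processome gene, which had an RRPE core only. The RRPE core, searched as AAAATTTT, which reads the same on both strands, was present in 41 promoters (80.4%), against 8.65% of all promoters. Both elements were found in 40 promoters (78.4%), against 4.08% of all. Matches had preferred places: the median first base lay 116 bases before the start codon for the PAC core and 139 bases for the RRPE core, and 66 of the 79 PAC matches and 36 of the 49 RRPE matches started 160 to 60 bases before it. In HAS1, 2 PAC cores overlap by a base, at 106 and 101 bases before the start codon.

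The elements of SBF and of MBF, the other G1/S factor, were found in few of the promoters. The SBF element SCB, searched as CGCGAAA, was present in 3 of 51 promoters (5.88%), those of the U3 snoRNP protein gene RRP9 and of the 60S factor genes RRS1 and RPF1, against 3.35% of all promoters. The MBF element MCB, searched as ACGCGT, was in 0 of 51, against 2.9% of all promoters. A match is a run of letters and not a shown binding site, and no match in this window says nothing of a factor's binding.

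**Figure D1:**
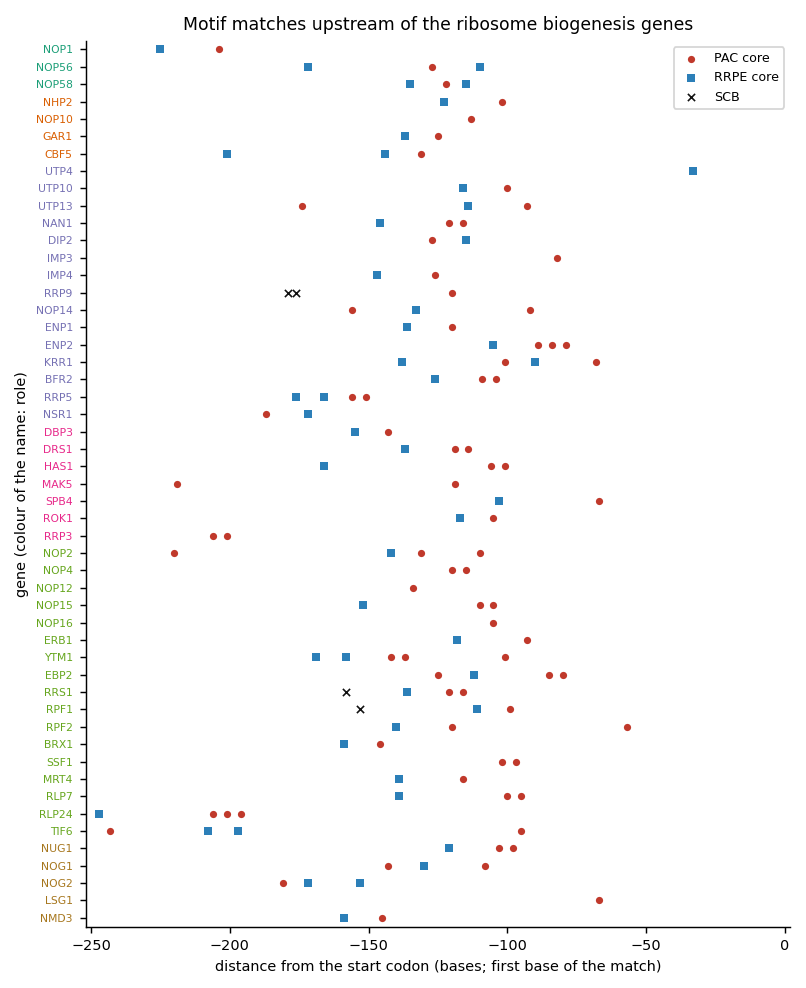
Matches to the PAC core (red circles), the RRPE core (blue squares) and the SCB (black crosses) in the 250 bases before the start codon of each of the 51 genes; the x axis gives the distance of the first base of a match from the start codon in bases, and gene names are coloured by role. PAC cores are present in 50 rows and gather near 116 bases, with the RRPE cores near 139 bases, while SCB matches are in 3 rows.

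The genes differed widely in level. Averaged over the 14 libraries and divided by coding length, the highest was NOP1 (YDL014W), the box C/D methyltransferase fibrillarin, at 720 CPM per kb. It was followed by NSR1 at 672, the H/ACA proteins NOP10 at 604 and NHP2 at 519, and CBF5 at 465 CPM per kb. The lowest was the helicase gene SPB4 at 42.1 CPM per kb. Within a gene the libraries lay closer together: the highest library was 1.52 times (NOG2, a 60S GTPase) to 3.02 times (NOP14, YDL148C, a processome protein) the lowest, and 28 of the 51 genes reached 2-fold. The highest library was untreated replicate 2 for 30 genes and untreated replicate 1 for 6, while estradiol 4 h replicate 2 was the lowest for 22 genes and ethanol 4 h replicate 2 for 16.

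**Figure D2:**
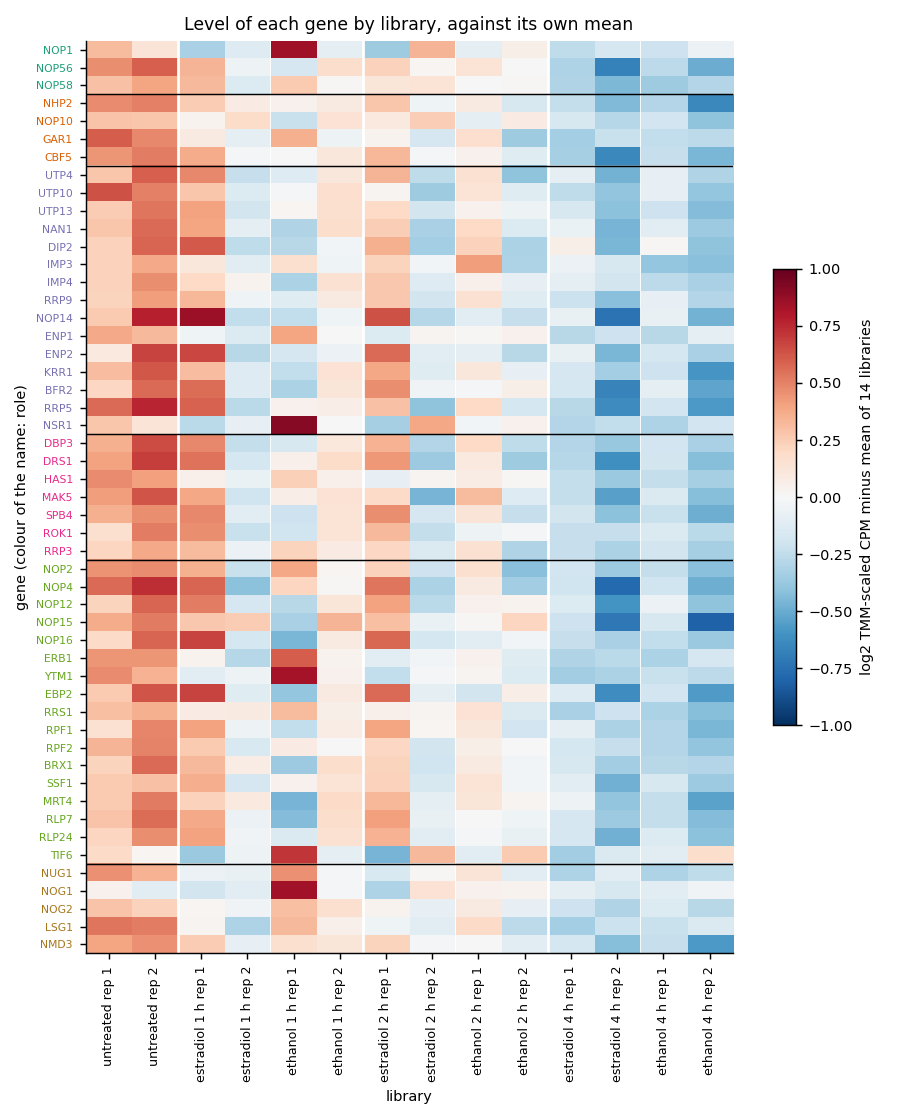
Level of each of the 51 genes in each of the 14 libraries, as log2 TMM-scaled CPM minus the gene's mean over the libraries, with libraries in order of time and genes grouped and coloured by role. Untreated libraries are red for nearly all genes and 4 h libraries are blue in both arms, while NOP1, NSR1, YTM1, TIF6 and NOG1 stand out as dark red in ethanol 1 h replicate 1.

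Estradiol was compared with ethanol at each time to ask whether SWI4 induction moved these genes. It made no call in either direction at any time: edgeR's quasi-likelihood test called 0 of 51 genes at 1 h, where 0.963% of the 6337 genes tested were called, 0 of 51 at 2 h, where 1.26% were called, and 0 of 51 at 4 h, where 1.88% were called. At an unadjusted p under 0.05 there were 3 of 51 genes at 1 h (5.88%, against 9.72% of all genes) and 0 at 2 and 4 h, and DESeq2 called 0 at each time. The smallest adjusted p was 0.467 at 1 h, and it was 1 at 2 h and at 4 h.

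The median log2 fold change of the 51 genes, estradiol over ethanol, was 0.11 at 1 h, 0.058 at 2 h and -0.022 at 4 h, beside medians of 0.006, 0.024 and -0.008 over all genes tested. The direction of these small medians changed with single libraries: the median at 1 h was -0.18 without estradiol 1 h replicate 1, that at 2 h was -0.085 without estradiol 2 h replicate 1, and that at 4 h was 0.092 without estradiol 4 h replicate 2. How large a response could have been missed is shown by the 95% intervals, which lay wholly between -1 and 1 on the log2 scale for 40 genes at 1 h, 46 at 2 h and 49 at 4 h. With the 3 times taken as 1 average effect, 0 of 51 genes were called, where 6.22% of 6320 genes were. All 51 intervals then lay within -1 and 1, the median was 0.071, the smallest adjusted p 0.374, and 0 of 51 genes had an unadjusted p under 0.05, while DESeq2 also called 0.

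**Figure D3:**
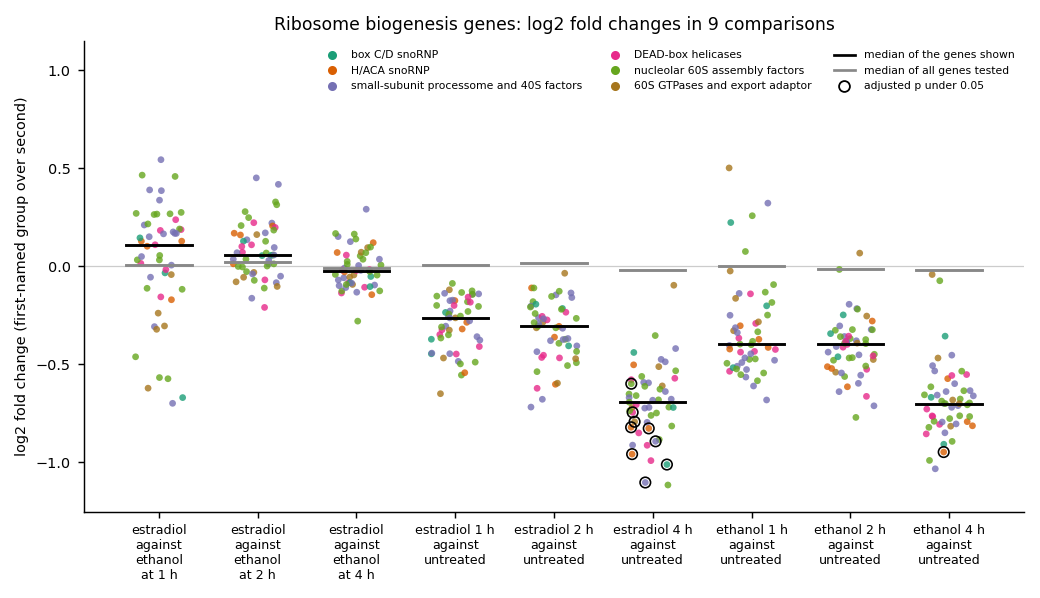
Log2 fold changes (first-named group over second) of the 51 genes in the 9 pairwise comparisons; each point is a gene, coloured by role, black bars are the medians of the genes shown, grey bars those of all genes tested, and rings mark genes with an adjusted p under 0.05. The 3 comparisons of estradiol with ethanol have medians from -0.022 to 0.11, and the points lie lowest in the 2 comparisons of 4 h with untreated cells, with medians of -0.69 and -0.70.

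By role, the spread at 1 h was wider than at later times. The 5 genes for 60S GTPases and the export adaptor were all lower with estradiol at 1 h (median log2 fold change -0.30), and 12 of 15 processome and 40S genes (median 0.17) and 12 of 17 nucleolar 60S genes (median 0.19) were higher, none of them called. These signs are relative to TMM scaling, since scaling by library totals alone put the median of all genes at 0.32 for 1 h. At 2 and 4 h the medians of the roles lay between -0.083 and 0.164. The 2 lowest genes at 1 h were NSR1 and NOP1. NSR1 had 674 and 768 CPM after 1 h of estradiol against 1530 and 809 CPM after 1 h of ethanol, a log2 fold change of -0.70 (SE 0.32, adjusted p = 0.512). NOP1 had 553 and 633 CPM with estradiol against 1240 and 644 CPM with ethanol, a log2 fold change of -0.67 (SE 0.32, adjusted p = 0.529). In both genes 1 ethanol library, replicate 1, stood above the other 3, and without it the log2 fold changes were -0.165 for NSR1 and -0.116 for NOP1.

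The same library was the highest of the 14 for 8 genes: NOP1, NSR1, NOG1, TIF6, YTM1, ERB1, ENP1 and NOG2. NOG1, the gene of a GTPase of early pre-60S particles, had 332 and 348 CPM after 1 h of estradiol against 672 and 374 CPM after 1 h of ethanol, a log2 fold change of -0.62 (SE 0.27, adjusted p = 0.486). TIF6, whose product keeps immature 60S subunits from joining 40S subunits, had 193 and 241 CPM against 409 and 234 CPM, a log2 fold change of -0.57 (SE 0.31, adjusted p = 0.554). YTM1, a member of the complex that processes 27S pre-rRNA and named here after its values were seen, had 186 and 194 CPM against 359 and 207 CPM. It had the smallest p of the set (unadjusted 0.033, adjusted 0.467), and it was called, with a log2 fold change of -0.88 and an adjusted p of 0.0376, when ethanol 1 h replicate 2 was left out and replicate 1 stood alone for its group.

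The 2 highest genes at 1 h were NOP14 and NOP16, a 60S factor. NOP14 had 238 and 111 CPM after 1 h of estradiol against 111 and 128 CPM after 1 h of ethanol, a log2 fold change of 0.54 (SE 0.39, adjusted p = 0.587). Here it was estradiol replicate 1 that stood above the other 3. NOP16 had 195 and 108 CPM against 88.8 and 130 CPM, a log2 fold change of 0.46 (SE 0.31, adjusted p = 0.572), and its groups overlapped as well. Over the whole set, 8 genes at 1 h had both estradiol libraries below both ethanol libraries and 0 had both above, against 16.7% and 14.3% of all genes.

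At 2 h the 2 highest genes were the processome genes ENP2, with a log2 fold change of 0.45 (SE 0.32), and NOP14, with 0.42 (SE 0.39), and the 2 lowest were the helicase gene MAK5, at -0.21 (SE 0.27), and UTP10, at -0.16 (SE 0.23), each with an edgeR adjusted p of 1. ENP2 had 226 and 141 CPM after 2 h of estradiol against 143 and 126 CPM after 2 h of ethanol, so that again replicate 1 of estradiol stood apart. At 4 h the highest were IMP3, a U3 snoRNP protein gene, at 0.29 (SE 0.22), and RPF1 at 0.17 (SE 0.23), and the lowest were TIF6 at -0.28 (SE 0.31) and CBF5 at -0.14 (SE 0.24), each with an edgeR adjusted p of 1. IMP3 had 47.3 and 44.1 CPM after 4 h of estradiol against 37.8 and 36.9 CPM after 4 h of ethanol, without overlap. At 4 h, 3 genes of the set had both estradiol libraries above both ethanol libraries and 2 had both below. The shares of all genes were 19.3% and 17.7%.

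Whether the effect of estradiol differed between times was tested jointly. For the change with time 0 of 51 genes were called, where 0% of all genes were, and 0 of 51 had an unadjusted p under 0.05, against 72 of all genes, and DESeq2 called 0 of 51. For any difference among the 7 groups edgeR called 0 of 51, where 4.4% of all genes were called, 11 of 51 had an unadjusted p under 0.05 (21.6%, against 15.1% of all genes), and DESeq2 called 14, where it called 13.1% of all genes.

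Against untreated cells the log2 fold changes of most genes of the set were below 0 in both arms, with the lowest medians at 4 h, although edgeR called few of them. The median level of the 51 genes was 242 and 183 CPM in replicates 1 and 2 after 1 h of estradiol, 232 and 174 CPM after 2 h and 170 and 162 CPM after 4 h. After ethanol it was 195 and 207 CPM at 1 h, 206 and 197 CPM at 2 h and 173 and 153 CPM at 4 h. It was 274 and 279 CPM in untreated cells, above all 12 treated libraries. The libraries measure shares of the counted RNA of a whole culture, so fewer cells with these transcripts and less RNA per cell cannot be told apart. Time in culture and treatment cannot be told apart in these comparisons, because untreated cells were sampled at 0 h only. All 6 comparisons share the 2 untreated libraries, so the arms are not independent of each other.

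After estradiol, the median log2 fold change against untreated cells was -0.26 at 1 h, -0.31 at 2 h and -0.69 at 4 h, and all 51 genes were below 0 at each time. After ethanol the medians were -0.40, -0.40 and -0.70, with 46, 50 and 51 genes below 0, beside medians from -0.02 to 0.016 over all genes in these 6 comparisons. A median of -0.69 is 0.619 of the untreated level. At 4 h both treated libraries were below both untreated libraries for 50 of 51 genes after estradiol, against 34.1% of all genes, and for 49 of 51 after ethanol, against 30.8% of all genes. At 1 and 2 h this held for 26 and 28 of 51 genes after estradiol, against 22.5% and 21.7% of all genes. After ethanol it held for 40 and 48 of 51 genes at 1 and 2 h, against 20.7% and 22.5% of all genes.

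By edgeR's test over all libraries, calls were made at 4 h only. With estradiol, edgeR called 0 of 51 genes at 1 h, where 1.53% of all genes were called in either direction, 0 at 2 h, where 3.47% were, and 9 lower and 0 higher at 4 h, where 3.8% of all genes were called lower and 10.7% in either direction. With ethanol it called 0 at 1 h, where 0% were, 0 at 2 h, where 0.0473% were, and 1 lower at 4 h, where 0.284% were called lower and 1.74% in either direction. At an unadjusted p under 0.05 there were 5, 8 and 44 of 51 genes at 1, 2 and 4 h of estradiol, and 0, 5 and 41 at 1, 2 and 4 h of ethanol. With estradiol these are 9.8%, 15.7% and 86.3% of the set, against 10.8%, 16% and 27.8% of all genes, so that the shares at 1 and 2 h were near the background. With ethanol they are 0%, 9.8% and 80.4% of the set, against 6.26%, 5.9% and 17.3% of all genes. DESeq2 called 2, 2 and 31 genes lower with estradiol, where it called 3.58%, 7.01% and 17.9% of all genes in either direction. With ethanol it called 0 at 1 and 2 h and 26 at 4 h, where it called 7.67% of all genes.

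The edgeR calls rested on every library used. Leaving out either untreated library, or either 4 h library of the arm compared, left 0 called genes in both arms. All 51 genes stayed below 0 in each of these 8 repeats except with ethanol without untreated replicate 1 and without ethanol 4 h replicate 1, where 49 did. The median then ran from -0.79 to -0.57 with estradiol and from -0.77 to -0.62 with ethanol. A fit to the 4 libraries of each comparison alone called 47 genes with estradiol, where it called 29.1% of all genes in either direction, and 42 with ethanol, where it called 13.4%.

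Among the proteins of the box C/D snoRNPs, which methylate ribosomal RNA, NOP56 was the 1 called lower with estradiol at 4 h. It had 745 and 566 CPM after 1 h of estradiol, 687 and 594 after 2 h and 475 and 368 after 4 h. After ethanol it had 524 and 662 CPM at 1 h, 645 and 588 at 2 h and 489 and 416 at 4 h, and in untreated cells 810 and 887 CPM. At 4 h every treated library was below both untreated ones, with a log2 fold change of -1.01 for estradiol (SE 0.24, edgeR adjusted p = 0.022) and -0.91 for ethanol (SE 0.24, adjusted p = 0.0817). NOP1 had 578 and 615 CPM after 4 h of estradiol and 599 and 664 CPM after 4 h of ethanol, against 860 and 756 CPM in untreated cells, log2 fold changes of -0.44 (SE 0.32, adjusted p = 0.401) and -0.36 (SE 0.32, adjusted p = 0.608).

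The H/ACA proteins, which carry out pseudouridylation, had the lowest median of the 6 roles at 4 h, -0.82 with estradiol and -0.80 with ethanol. All 4 were below 0 with estradiol, and edgeR called 3 of them lower, where 3.8% of all genes were called lower. CBF5 had 849 and 652, 828 and 651, and 522 and 420 CPM after 1, 2 and 4 h of estradiol. With ethanol the values were 660 and 713 CPM at 1 h, 678 and 604 at 2 h and 560 and 480 at 4 h, and it had 891 and 937 CPM in untreated cells. Its log2 fold change at 4 h was -0.96 for estradiol (SE 0.24, edgeR adjusted p = 0.0258) and -0.81 for ethanol (SE 0.24, adjusted p = 0.107). NHP2 had 202 and 176 CPM after 4 h of estradiol and 195 and 153 CPM after 4 h of ethanol, against 331 and 339 CPM in untreated cells, and it was the 1 gene called in both arms. Its log2 fold changes were -0.83 (SE 0.21, adjusted p = 0.0258) and -0.95 (SE 0.21, adjusted p = 0.0414). GAR1, with 211 and 228 CPM after 4 h of estradiol against 405 and 372 CPM in untreated cells, fell too (log2 fold change -0.82, SE 0.23, adjusted p = 0.0392).

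**Figure D4:**
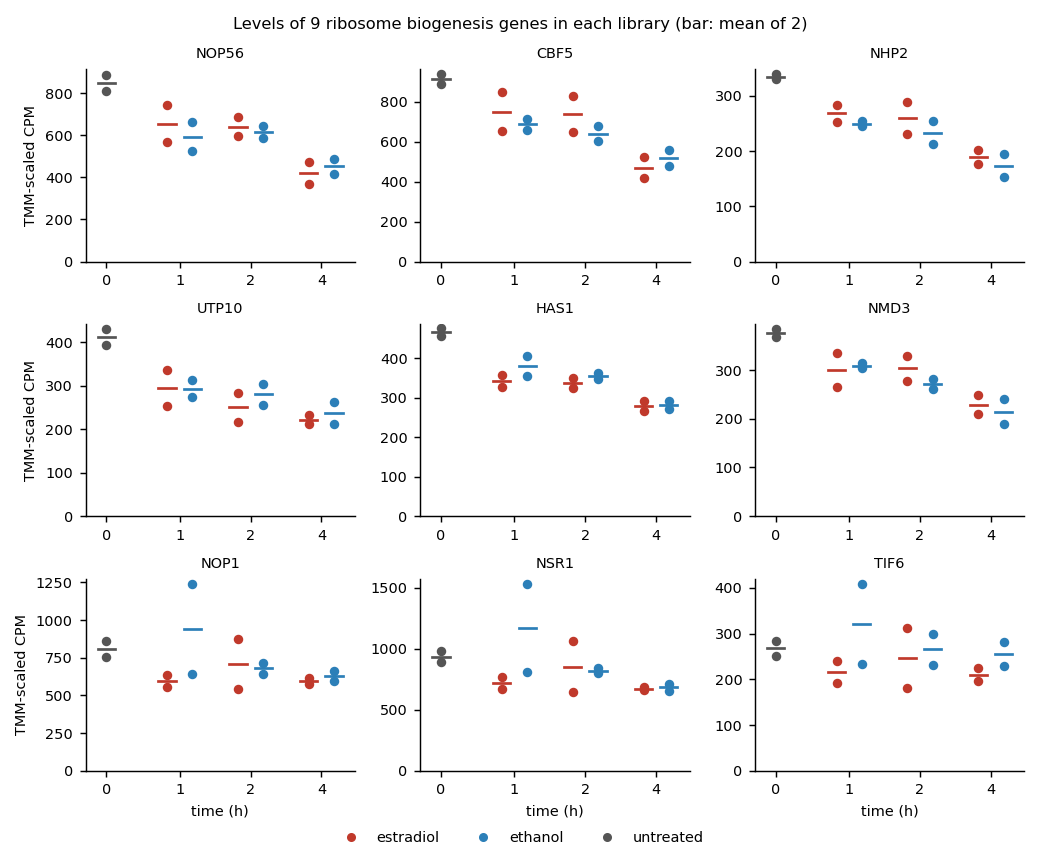
TMM-scaled CPM of 9 genes in each library against time in h, with estradiol in red, ethanol in blue and untreated cells in grey at 0 h; points are libraries and bars the means of 2. NOP56, CBF5, NHP2, UTP10, HAS1 and NMD3 are lowest at 4 h in both arms, while NOP1, NSR1 and TIF6 have a single high ethanol 1 h library (1240, 1530 and 409 CPM).

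All 15 small-subunit genes were below 0 with estradiol at 4 h, and edgeR called 2 of them lower, against 3.8% of all genes. The median was -0.68 with estradiol and -0.66 with ethanol. UTP10 had 233 and 211 CPM after 4 h of estradiol and 263 and 213 CPM after 4 h of ethanol, against 431 and 394 CPM in untreated cells, log2 fold changes of -0.89 (SE 0.23, edgeR adjusted p = 0.0288) and -0.79 (SE 0.23, adjusted p = 0.103). RRP5 (YMR229C), a factor of both subunits' pre-rRNA processing, had 245 and 192 CPM after estradiol and 260 and 199 CPM after ethanol, against 438 and 501 CPM in untreated cells. Its log2 fold changes were -1.10 (SE 0.32, edgeR adjusted p = 0.048) and -1.03 (SE 0.32, adjusted p = 0.123). IMP3 and NSR1 were not called, with log2 fold changes of -0.42 (SE 0.22) and -0.47 (SE 0.32) with estradiol and of -0.71 (SE 0.22) and -0.45 (SE 0.32) with ethanol.

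Of the 7 helicase genes, which unwind pre-rRNA and snoRNA duplexes, HAS1 was the 1 called lower with estradiol at 4 h. It had 292 and 266 CPM after 4 h of estradiol and 291 and 273 CPM after 4 h of ethanol, against 477 and 457 CPM in untreated cells, and its replicates lay close together. The log2 fold changes were -0.74 (SE 0.19, edgeR adjusted p = 0.0261) and -0.73 (SE 0.19, adjusted p = 0.0742). DBP3, whose product acts in 60S assembly, had 206 and 195 CPM after estradiol and 222 and 202 CPM after ethanol, against 324 and 397 CPM in untreated cells, and was not called (log2 fold changes -0.85 and -0.77, SE 0.29 each, adjusted p = 0.0847 and 0.202).

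All 17 nucleolar 60S genes were below 0 with estradiol at 4 h, and edgeR called 1 lower, against 3.8% of all genes. This was RRS1, a 5S RNP assembly factor named after its values were seen (log2 fold change -0.60, SE 0.17, edgeR adjusted p = 0.0446). The lowest log2 fold change of the whole set was that of NOP4, also named after its values were seen, which had 161 and 108 CPM after 4 h of estradiol against 274 and 309 CPM in untreated cells and was not called (-1.11, SE 0.36, adjusted p = 0.0678). NOP2, the 25S rRNA methyltransferase gene, was at -0.74 (SE 0.27) with estradiol and -0.79 (SE 0.27) with ethanol, and RPF2, of the 5S RNP pathway, at -0.63 (SE 0.20) and -0.77 (SE 0.20), none called. SSF1 has a near-identical paralog, SSF2, and how reads were divided between them is not given, so its level is uncertain.

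All 5 genes for 60S GTPases and the export adaptor were below 0 with estradiol at 4 h. The 1 called lower was LSG1 (YGL099W), the GTPase that releases the export adaptor in the cytoplasm. It had 110 and 120 CPM after 4 h of estradiol and 119 and 126 CPM after 4 h of ethanol, against 201 and 198 CPM in untreated cells, log2 fold changes of -0.79 (SE 0.20, edgeR adjusted p = 0.0273) and -0.70 (SE 0.20, adjusted p = 0.101). NMD3 (YHR170W), the adaptor itself, had 249 and 209 CPM after estradiol and 240 and 189 CPM after ethanol, against 369 and 385 CPM in untreated cells. It was just outside the threshold, at -0.72 (SE 0.21, adjusted p = 0.0502) and -0.82 (SE 0.21, adjusted p = 0.0746).

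NOG1 and TIF6 were the genes nearest to no change at 4 h with ethanol. NOG1 had 354 and 337 CPM after 4 h of estradiol and 349 and 368 CPM after 4 h of ethanol, against 388 and 350 CPM in untreated cells, log2 fold changes of -0.10 (95% interval -0.73 to 0.53) and -0.04 (-0.67 to 0.59). TIF6 had 196 and 225 CPM after estradiol and 230 and 281 CPM after ethanol, against 285 and 252 CPM in untreated cells, log2 fold changes of -0.35 (-1.09 to 0.39) and -0.07 (-0.81 to 0.66). The groups of both genes overlapped in the ethanol comparison. The intervals hold the median of the set, except that of NOG1 with ethanol, whose lower end lies just above it. Neither gene's difference from the rest of the set was tested.

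The rest of the pathway, taken from lists of genes outside the set, had medians below 0 at 4 h as well, from -0.72 to -0.27 over 4 lists. Genes of these lists named against untreated cells were chosen after their values were seen. Over all genes tested, edgeR called 3.8% lower with estradiol at 4 h and 0.284% lower with ethanol at 4 h. Of 44 other processome and 40S genes, edgeR called 7 lower with estradiol, all 44 were below 0 and the median log2 fold change was -0.67. They include DIM1, the 18S rRNA dimethylase gene, at -0.99 (SE 0.18, edgeR adjusted p = 0.00592), and TSR1, a pre-40S factor gene, at -0.92 (SE 0.21, adjusted p = 0.0167). With ethanol 0 were called, all 44 were below 0 and the median was -0.65. Of 45 other 60S genes, 10 were called lower with estradiol (median -0.72) and 1 with ethanol (median -0.67), and all 45 were below 0 in both arms. NOC3, a pre-60S factor gene, fell by 0.95 on the log2 scale with estradiol (SE 0.19, edgeR adjusted p = 0.00968), and NOP13 was called in both arms, at -0.79 (adjusted p = 0.0115) and -0.74 (adjusted p = 0.05 after rounding). Leaving out 1 library at a time, these calls with estradiol numbered 0 to 2 and 0 to 4, and all genes of both lists stayed below 0. By library totals alone both lists had 0 calls in each arm. The compared groups alone gave 34 and 35 calls with estradiol and 30 and 28 with ethanol. DESeq2 gave 19 and 17 with estradiol and 13 and 12 with ethanol. GC trend removal, a setting chosen after seeing the data, gave 21 and 20 with estradiol and 9 and 13 with ethanol. The shares of all genes called by the compared groups alone, DESeq2 and GC trend removal are given with the counts of the set. Of 12 RNA polymerase III subunits, 3 were called lower with estradiol (median -0.65) and 0 with ethanol (median -0.56). Of 15 RNA polymerase I subunits and initiation factors, 3 were called lower with estradiol (median -0.29) and 0 with ethanol (median -0.27). Those 3 were the subunit genes RPA34, RPA43 and RPA49, and the polymerase III calls included RPC40, a subunit that both enzymes share. Leaving out a library left 0 to 1 polymerase I calls and 0 polymerase III calls with estradiol, and library totals left 0 of each, while the compared groups alone gave 6 and 9 with estradiol and 4 and 6 with ethanol.

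The ribosomal proteins had medians nearer to 0 than the set did. Of 132 ribosomal protein genes, edgeR called 1 lower with estradiol (median -0.26), where 3.8% of all genes were called lower. With ethanol it called 1 lower (median -0.19), where 0.284% were, and in both arms this was RPS28B. Most of these genes have a near-identical paralog, as RPS28B has in RPS28A, so how their reads were divided is uncertain. With estradiol the calls numbered 9 by library totals, 7 by DESeq2, 22 with the compared groups alone and 22 after GC trend removal, where the median was -0.41, and with ethanol they ran from 0 to 4 over the same settings. Except for library totals, the shares of all genes called in these settings are given with the counts of the set. The difference of the ribosomal protein genes from the assembly factors was not tested. General stress genes moved the other way: of 26 tested, edgeR called 18 higher and 0 lower with estradiol at 4 h (median log2 fold change 1.31) and 12 higher and 0 lower with ethanol (median 1.16), and leaving out 1 library left 10 to 17 and 3 to 12 calls. Over all genes tested, edgeR called 10.7% in either direction with estradiol at 4 h and 1.74% with ethanol at 4 h. HSP12, a membrane-stabilising stress protein gene, was at 6.25 with estradiol (SE 0.42, edgeR adjusted p = 1.33e-05) and 3.30 with ethanol (SE 0.46, adjusted p = 0.0042). The part of the stress genes in the lower levels of the ribosome biogenesis genes was not tested. Estradiol against ethanol, edgeR called 0 genes in each of the 6 lists other than the stress genes at 1, 2 and 4 h. The exceptions among other settings were UTP15, DBP2, RSA4 and RPA135, called lower at 1 h without ethanol 1 h replicate 2, and DOT6, called higher at 4 h after GC trend removal. Among stress genes, YGP1, a cell wall glycoprotein gene, fell with log2 fold changes of -1.93, -2.25 and -2.98 at 1, 2 and 4 h (edgeR adjusted p = 0.00268, 0.000517 and 4.4e-05). HSP12 and DDR48 rose at 4 h, with log2 fold changes of 2.95 (edgeR adjusted p = 0.00043) and 1.29 (adjusted p = 0.0359).

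Of 13 known regulators of the regulon, DOT6 was the 1 gene called against untreated cells. TOD6 was also called lower with estradiol at 4 h with a replicate block (adjusted p = 0.0457), by DESeq2 (0.0446) and with the compared groups alone (0.00971). The last setting also called CRF1 higher and MRS6 lower, and with ethanol it called DOT6 higher and TOD6 lower. DOT6 had 86.7 and 75.5 CPM after 1 h of estradiol, 106 and 156 after 2 h and 144 and 163 after 4 h. It had 132 and 75 CPM after 1 h of ethanol, 69.4 and 86.1 after 2 h and 82 and 97.7 after 4 h, and 64.2 and 58 CPM in untreated cells. It rose with estradiol against untreated cells at 2 h (log2 fold change 1.10, SE 0.27, edgeR adjusted p = 0.0489) and at 4 h (1.33, SE 0.27, adjusted p = 0.00982). With ethanol at 4 h the log2 fold change was 0.56 (SE 0.27, adjusted p = 0.314). Estradiol against ethanol at 4 h it was 0.77 (SE 0.27, adjusted p = 0.318), which was not called, while after GC trend removal it was 0.75 and called (edgeR adjusted p = 0.0245). Over the other settings that adjusted p ran from 0.132 to 1. The 4 h call was lost without untreated replicate 1 (adjusted p = 0.0731), without untreated replicate 2 (0.112) or without estradiol 4 h replicate 2 (0.0867), with log2 fold changes of 1.42, 1.25 and 1.24. The 2 h call was lost in 7 of the other settings. The activator SFP1 and the repressors STB3 and TOD6 had log2 fold changes of -0.01, 0.06 and -0.63 with estradiol at 4 h, none called.

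The promoter elements went with the change at 4 h outside the set as well. The 203 other genes with both a PAC and an RRPE core had a median log2 fold change of -0.56 with estradiol at 4 h, with 30 called lower and 2 higher, and of -0.51 with ethanol, with 1 called lower and 0 higher. The 4533 genes with neither element had a median of 0.03 with estradiol, with 114 called lower and 344 higher, and of 0.02 with ethanol, with 9 called lower and 68 higher. Genes with a PAC core only (728) had medians of -0.13 and -0.10, and those with an RRPE core only (264) medians of -0.26 and -0.20. The 203 may include assembly factors of the same regulon, which were not counted, so this is a description and not a second measurement. Within the set the 40 genes with both elements had a median of -0.70 with estradiol and the 10 with a PAC core only one of -0.66. The 3 genes with an SCB match, RRP9, RRS1 and RPF1, had a median log2 fold change of 0.17, 0.04 and 0.10 for estradiol against ethanol at 1, 2 and 4 h, and none was called.

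Replicates of a group differed in these genes along with the GC content and, in some groups, the length of the coding sequence. In each estradiol group replicate 1 was higher than replicate 2 for most of the set: 44 genes at 1 h, 40 at 2 h and 40 at 4 h. It was higher for 20, 40 and 42 genes at 1, 2 and 4 h of ethanol, and for 14 in untreated cells. Across the 51 genes, the replicate 1 minus replicate 2 difference in log2 CPM had a Pearson correlation with GC content of -0.54, -0.59 and -0.53 at 1, 2 and 4 h of estradiol, of 0.66, -0.07 and -0.48 at 1, 2 and 4 h of ethanol, and of 0.61 in untreated cells. These are correlations across genes that share their libraries, and genes are not independent replicates. Over all 5779 matched genes they were -0.42, -0.60 and -0.60, then 0.60, -0.27 and -0.60, and 0.52. Across the 51 genes, the correlations with log2 coding length were 0.52, 0.29 and 0.27 at 1, 2 and 4 h of estradiol. They were 0.08, 0.33 and 0.12 at 1, 2 and 4 h of ethanol and -0.13 in untreated cells.

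The 8 genes that were highest in ethanol 1 h replicate 1 had a median GC content of 41.2%, against 38.1% in the other 43. A fit from which the GC trend of each library was removed, a setting chosen after seeing the data, called 28 genes lower with estradiol at 4 h, among them 8 of the 9, where it called 19.3% of all genes in either direction, and 16 with ethanol, where it called 6.61%. It called 0 for estradiol against ethanol at 1, 2 and 4 h, where the median at 1 h became -0.02. The part of base composition in the replicate differences was not tested further, and that of coding length was not tested.

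**Figure D5:**
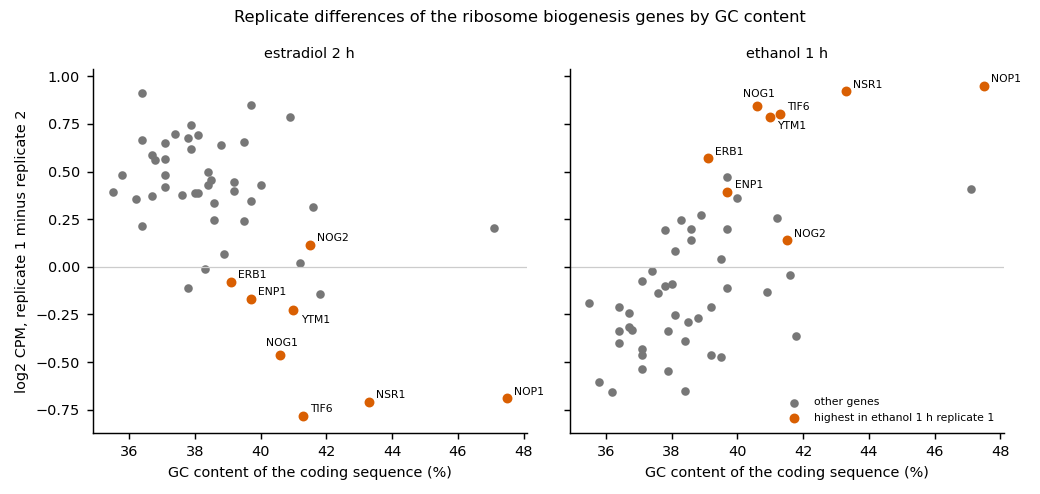
Difference between replicate 1 and replicate 2 in log2 CPM for each of the 51 genes, against the GC content of its coding sequence in percent, for estradiol 2 h (left) and ethanol 1 h (right); orange points are the 8 genes that were highest in ethanol 1 h replicate 1. The differences lie lower at higher GC content with estradiol at 2 h (r = -0.59) and higher with ethanol at 1 h (r = 0.66). The orange genes run from 39.1% to 47.5% GC and the other genes from 35.5% to 47.1%, so the 2 classes overlap.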

How the data were processed

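Polyadenylated RNA was sequenced in 14 libraries. The values deposited by the authors are raw counts of reads for each reading frame, whole and not normalized, and 0 of the table's sample columns were left unused. The submitters' processing notes name Bowtie2 2.2.5. Which tool counted the reads, with which build and strand setting, is not given in the sources used. The treatment protocol in the labels names 1 h only, while sample labels give 1, 2 and 4 h, and the sample labels were used. Symbols came from RefSeq's R64 table, which matched 5999 of 6670 identifiers. NOG2 holds the snoRNA SNR191 in its intron, and no other gene of the set overlaps an annotated gene.

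The analysis used edgeR 4.0.16 in R 4.3.3: TMM factors, filterByExpr with a minimum count of 10 (6337 genes), and a robust quasi-likelihood fit with a coefficient for each of 7 groups over all 14 libraries (7 residual degrees of freedom, common biological coefficient of variation 0.206). The average effect came from a second fit to the 12 treated libraries that also had a term for time (6320 genes, 8 residual degrees of freedom). Tests were 2-sided, p-values were adjusted over all genes by Benjamini-Hochberg, and an adjusted p under 0.05 was a call. An SE was taken as |log2 fold change|/√F, and 95% intervals use it with the residual degrees of freedom. The scripts were tested on simulated data. DESeq2 1.42.0, other scalings and filters, a replicate block, fits to the compared groups alone and leaving out each library were tried, and GC trend removal was added after seeing the data.

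The genes of the set, the other lists and the naming rule were chosen with earlier results of these data known. By the rule the text names fixed examples of each role, up to 6 called genes of the set with the smallest p per comparison, the 2 highest and 2 lowest per estradiol against ethanol comparison, and up to 3 called genes per other list and such comparison. The other lists held 288 genes, 287 of them tested.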

Additional observations from a re-analysis of the deposited data

How the results depend on the processing

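No gene of the set was called for estradiol against ethanol under any setting, except 1 (YTM1) at 1 h without ethanol 1 h replicate 2 (leave-one-out range 0 to 1). Leave-one-out counts were 0 in every comparison against untreated cells, at 4 h in place of 9 with estradiol and 1 with ethanol. At 4 h the counts for estradiol and ethanol were 0 and 0 by library totals, 15 and 2 with a replicate block, 47 and 42 with the compared groups alone, 31 and 26 by DESeq2 and 28 and 16 after GC trend removal. The shares of all genes called at 4 h are given above for the compared groups, DESeq2 and GC trend removal. They are not given for library totals and the block, so those counts stand here without a background. Nor are shares given for the compared groups at 2 h of ethanol, or for any difference among the groups after GC trend removal. At 2 h of ethanol the compared groups alone gave 6, and DESeq2 gave 2 at 1 h and 2 at 2 h of estradiol. For any difference among the groups DESeq2 gave 14, GC trend removal 1 (RRS1), and leaving out a library 0 to 1. All of these calls were lower where a direction exists, and why the counts differ was not tested. Replicate numbers did not pair the libraries in 1 direction: replicate differences of 21 pairs of groups correlated from -0.733 to 0.774, 11 over 0.1 and 10 under -0.1. Untreated and ethanol 1 h correlated at 0.671 with each other and below 0 with every other group. The other groups correlated at 0.372 to 0.774 among themselves, and what the groups share was not tested. The block changed no other count by over 1.5 times. Reversed medians for estradiol against ethanol were -0.1775 at 1 h without estradiol 1 h replicate 1 and -0.01639 after GC trend removal, -0.01213 and -0.08467 at 2 h without ethanol 2 h replicate 2 or estradiol 2 h replicate 1, 0.05015 and 0.09229 at 4 h without ethanol 4 h replicate 1 or estradiol 4 h replicate 2, and -0.0285 for the average effect without estradiol 1 h replicate 1, and the leave-one-out values reached 0.2784 at 1 h, 0.2506 at 2 h, -0.09511 at 4 h and 0.1079 for the average at the other end. Single genes reversed only in leave-one-out fits. For estradiol against ethanol they ran from -0.09029 to 0.9928 for NOP14 and from -2.338e-05 to 0.8281 for NOP16 at 1 h, from -0.5656 to 0.08768 for MAK5 (0.03354 in another), from -0.365 to 0.02745 for UTP10 and from -0.1095 to 0.8119 for NOP14 at 2 h, and from -0.3186 to 0.003627 for CBF5 at 4 h. With ethanol at 4 h against untreated cells they ran from -0.2252 to 0.07625 for TIF6 (0.04123 in another) and from -0.1126 to 0.05693 for NOG1 (0.007112 in another). Library totals shifted the median of all genes by more than 0.1 in 5 comparisons, most for estradiol against ethanol at 1 h (0.3191, with 0.4377 for the set), so levels are relative to TMM scaling. With 2 libraries a group, the 95% intervals in the report set what change could be seen, and intervals cover no source of error shared by both libraries of a group.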
